A study of Mus musculus with 2 samples.

Results

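The genes described here are 39 that act in the endoplasmic reticulum (ER), where secreted and membrane proteins enter, fold and receive their sugars, or that belong to the response to unfolded protein. They were chosen by name and looked up in the gene list of both matrices, and all 39 were found among 48825 features. Their levels were followed across the cell classes of the mouse parotid gland and between a control and an irradiated gland. Cells came from wild-type female mice of the C3H strain that were about 1 year old, and the glands of 2 mice were pooled into 1 library for each condition. The control mice were not irradiated. The irradiated (IR) mice had received 6 Gy a day to the head and neck on 5 consecutive days, 30 Gy in total, at 6 to 10 weeks of age, and their glands were taken 10 months later.

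A protein meant for secretion is brought to the ER membrane by the signal recognition particle (Srp9, Srp14), passes through the Sec61 channel (Sec61a1, Sec61b, Sec61g) with the help of the translocon-associated proteins (Ssr1 to Ssr4), loses its signal peptide to the signal peptidase (Sec11c, Spcs1 to Spcs3) and is glycosylated by the oligosaccharyltransferase (Rpn1, Rpn2, Ddost, Dad1, Ostc). Inside the ER it is folded by chaperones (Hspa5, also called BiP, Hsp90b1, Calr, Canx and their partners), and its disulphide bonds are made by P4hb, the Pdia proteins and Ero1lb. When unfolded protein builds up, the sensors Ire1, Perk and Atf6 act through Xbp1, Atf4 and Ddit3 and raise chaperones and degradation factors (Herpud1, Edem1), the unfolded protein response. Acinar cells fill granules with salivary proteins and plasma cells secrete antibodies, and both cell types are known for a large ER.

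With 1 library for each condition no test between conditions was possible, and the mice within a pool cannot be told apart. Unique molecular identifiers (UMIs, which mark single RNA molecules) were added up by class and library, and levels are counts per 1000000 UMIs (CPM). All intervals are 95% intervals, exact Poisson for sums, exact conditional binomial for ratios and Clopper-Pearson for shares. They cover counting error only, not the spread between mice or libraries. A member is said to rise or fall, or to be higher or lower, when its ratio was at least 1.5 between libraries or at least 2 between classes, or the inverse of these, from at least 50 UMIs over both sides and at least 1 on each. This is a rule of size and not a test.

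The filters kept 3378 control and 5286 IR cells, with a median of 2907.5 and 2461.5 UMIs. The libraries shared 12 barcodes, 3 of them among kept cells. Clusters were formed without the 39 members. The classes used most here, given as control and IR cells, were acinar (373 and 363), Etv1+ (266 and 259, secretory epithelium marked by the transcription factor Etv1), intercalated duct (106 and 126), striated duct (91 and 78), B-cells (837 and 838), plasma cells (8 and 30) and T-cells (1206 and 2882). Of the markers fixed for each class, 6 of 9 in control and 9 of 9 in IR acinar cells, 10 of 10 in Etv1+ cells, 6 of 6 in B-cells and 8 of 8 in T-cells were at least 2 times as high as in the other cells. Striated duct had 4 of 6 (control) and 3 of 6 (IR), with 2 and 1 markers without a UMI. Each member's place was taken from the GENCODE M21 annotation of GRCm38, in which 5 members overlap another gene on the same strand. Among them is Hsp90b1 (chr10:86690209-86705509), with Gm15344 and Gm25745. The overlaps may affect the counts of these members, and in what way was not tested. Hspa5 lies at chr2:34771970-34777547, Xbp1 at chr11:5520659-5525893 and Sec61a1 at chr6:88503579-88518905, each from its first to its last exon.

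Salivary products and antibody transcripts took most of the RNA of the secretory cells, which sets how any other gene appears. Left out together with mitochondrial and haemoglobin RNA as 473 genes, they made up 74.1% of control and 70.8% of IR acinar UMIs, 67.5% and 63.4% in Etv1+ cells, 74.0% and 66.7% in plasma cells, but 11.3% and 11.6% in B-cells. Each level is therefore given on 2 scales, as a share of all RNA and as a share of the remaining RNA without these 473 genes. The nuclear RNA Malat1 stood at 480 CPM in control and 470 CPM in IR acinar cells, against 4666 and 4382 in Etv1+ cells and 25779 and 20319 in B-cells. In barcodes with under 200 genes, which were left out, it stood at 451 and 513 CPM. These barcodes and the acinar cells also ordered the members alike, with a Spearman correlation of 0.80 (control) and 0.78 (IR) over 39 members, against 0.63 and 0.55 for B-cells and the same barcodes. This was not particular to acinar cells, since Etv1+ cells had 0.84 in both libraries and intercalated duct cells 0.84 and 0.82. Other measures set the control barcodes apart from control acinar cells. Listed salivary products took 16.8% of their UMIs against 73.8%, mitochondrial RNA 9.73% against 0.137% and the members 0.0920% against 0.289%. Malat1 and the order of the members do not tell whole acinar cells from droplets that hold free acinar RNA. Whether some acinar cells are such droplets was not tested, which bears on every acinar level and ratio given here.

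On all RNA the members together took the smallest share in acinar cells among the 11 classes plotted. They made up 0.289% of the UMIs of control acinar cells (8586 UMIs) and 0.326% of those of IR acinar cells (8728 UMIs). The share was 0.394% in control and 0.463% in IR Etv1+ cells, and 0.350% and 0.348% in intercalated duct cells. B-cells stood at 0.556% and 0.585%, and T-cells at 0.506% and 0.509%. The largest shares belonged to plasma cells, at 1.13% (control) and 1.65% (IR), from 661 and 3731 UMIs. Stromal cells had 0.874% and 1.03%, and macrophages 0.922% and 0.839%.

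On the remaining RNA the order of acinar, Etv1+ and intercalated duct cells against lymphocytes turned over. Acinar cells then stood at 1.12% (control) and 1.11% (IR), above B-cells at 0.627% and 0.662% and T-cells at 0.554% in both. Etv1+ cells had 1.21% and 1.27%, and intercalated duct cells 1.23% and 1.15%. Striated duct cells stood at 0.589% in the control, below B-cells, and at 1.03% in the IR library. Plasma cells kept the first place, at 4.35% and 4.95%. The share in control Etv1+ cells was 1.37 times (1.33 to 1.40) that in acinar cells on all RNA and 1.09 times (1.06 to 1.11) on the remaining RNA.

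**Figure D1:**
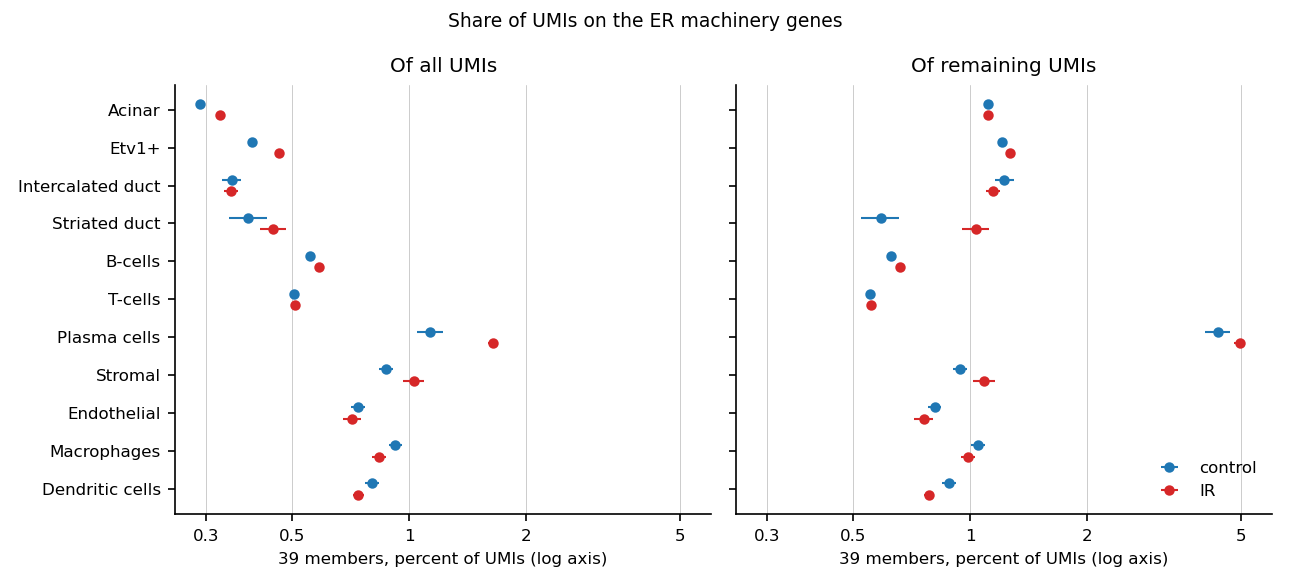
Share of UMIs on the 39 members in each cell class and library, as a percent on a log axis, on all RNA and on the remaining RNA, with 95% counting intervals. Acinar cells are lowest on all RNA (0.289% in the control library) but above B-cells on the remaining RNA (1.12% against 0.627%), and plasma cells are highest on both.

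Among cells with at least 10000 UMIs, the median share of members on all RNA was 0.270% in 102 control acinar cells, with the middle of the cells between 0.224% and 0.325%, and 0.299% in 81 IR acinar cells. The spread of the control acinar cells (SD 0.073 percentage points) exceeded the counting error of a median cell (0.0431). In 166 control Etv1+ cells it was 0.386%, and in 113 IR cells 0.451%. The ranges of single cells overlapped widely between classes and libraries. On the remaining RNA the medians were 1.15% in both acinar sets, and 1.22% and 1.24% in Etv1+ cells.

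Besides the total, the make-up of the machinery differed between classes, and this comparison does not depend on the scale, since it is taken within the members' own UMIs. Factors of targeting and translocation held 35.9% (34.9 to 36.9) of the members' UMIs in control acinar cells and 33.6% (33.1 to 34.2) in Etv1+ cells, against 23.2% (22.5 to 23.9) in B-cells, 27.3% in T-cells and 19.5% in plasma cells. Chaperones went the other way. They held 16.8% (16.0 to 17.6) in acinar and 19.0% (18.5 to 19.4) in Etv1+ cells, 35.1% (34.3 to 36.0) in B-cells, 37.9% in T-cells, 31.2% in plasma cells and 41.0% in stromal cells. Targeting and translocation held 32.9% and chaperones 21.1% in control intercalated duct cells, and 39.8% and 20.1% in striated duct cells. Acinar, Etv1+ and duct cells thus carried more entry factors than chaperones among these transcripts, and the immune and stromal cells more chaperones. The larger entry part of control acinar cells lay mostly in Ssr4 (12.9% of member UMIs against 4.33% in B-cells) and Sec61b (11.7% against 5.05%). Ssr2 was also above its B-cell part (2.24% against 1.37%), Ssr1 and Ssr3 were near it, and Srp9, Srp14, Sec61a1 and Sec61g were below it. The barcodes with under 200 genes had a make-up nearer to that of acinar and Etv1+ cells than to that of B-cells, with 39.9% targeting and translocation and 17.6% chaperones in the control library.

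After irradiation the chaperone part was larger in both secretory classes and in stromal cells. It was 19.3% of the members' UMIs in IR against 16.8% in control acinar cells, and 23.0% (22.5 to 23.6) against 19.0% in Etv1+ cells. In stromal cells (18 in IR and 37 in control) it was 48.9% (45.6 to 52.1) in IR against 41.0% (38.9 to 43.1) in control. This stromal difference lay mostly in Hspa5, with 20.04% of the members' UMIs in IR against 12.48% in control. Among the other chaperones Manf held 3.97% in IR against 2.39% in control, and Calr 8.68% against 10.68%. Targeting and translocation were 34.1% against 35.9% in acinar cells and 30.4% (29.8 to 31.0) against 33.6% in Etv1+ cells. In B-cells the chaperone part was 33.9% (33.0 to 34.7) in IR and 35.1% (34.3 to 36.0) in control, and these intervals overlapped. It was smaller in IR T-cells, at 33.9% against 37.9%, and in IR dendritic cells, at 32.8% against 38.3%. In plasma cells, endothelial cells and macrophages the intervals of the libraries overlapped. Among the left-out barcodes with under 200 genes chaperones held 22.6% in the IR and 17.6% in the control library, a difference of the same direction as in acinar and Etv1+ cells. In the duct classes the intervals of the libraries overlapped, with chaperones at 19.6% (18.0 to 21.4) in IR and 21.1% (18.8 to 23.5) in control intercalated duct cells and at 22.1% and 20.1% in striated duct cells.

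**Figure D2:**
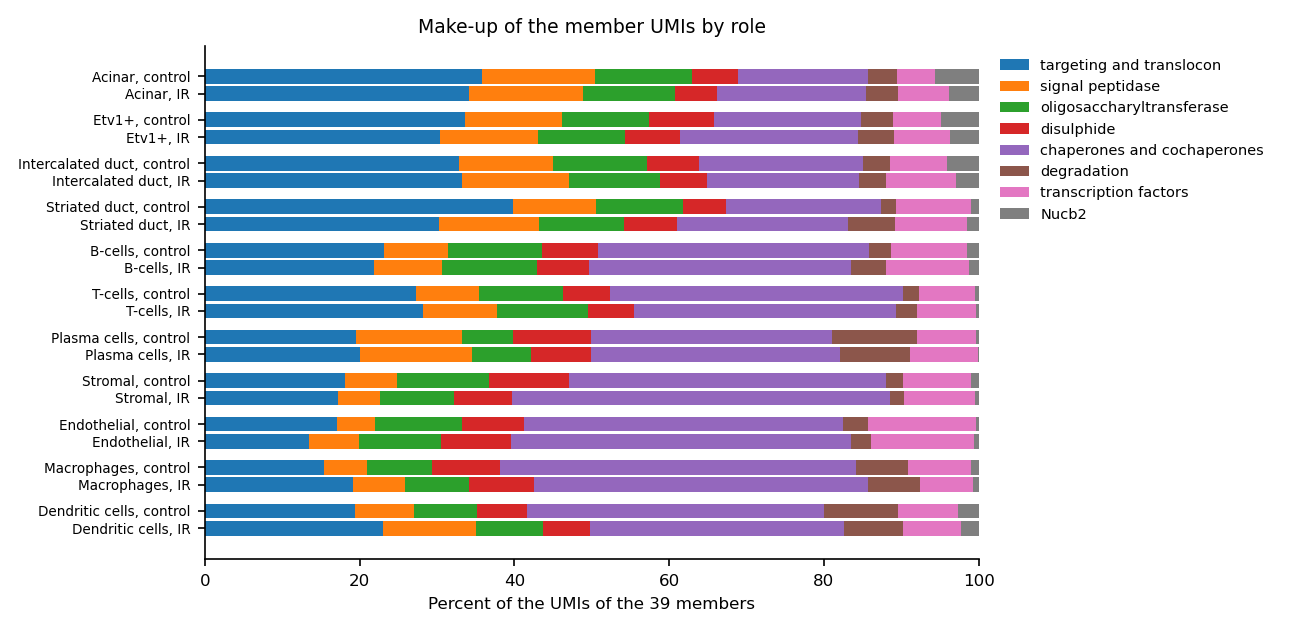
Make-up of the members' UMIs by role in 11 cell classes of the control and IR libraries, as stacked bars in percent of all member UMIs of the class. Targeting and translocation is the broad part in acinar cells (35.9% in control) and chaperones in B-cells (35.1%) and stromal cells (41.0%).

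Single members led in each class. In control acinar cells Ssr4, a subunit of the translocon-associated complex, was highest with 374 CPM, 12.9% of all member UMIs, followed by Sec61b (338), Sec11c, the catalytic subunit of signal peptidase (218), Nucb2, a calcium-binding protein (163), and Dad1 (134). Etv1+ cells had the same first 3 genes, at 441, 402 and 247 CPM, followed by P4hb (221), the disulphide isomerase. In control B-cells Calr (520), Hspa5 (494), Atf4 (435), Hsp90b1 (414) and Dad1 (401) led. The plasma cells combined both kinds, with Ssr4 (1233), Herpud1 (1062), Hspa5 (993), Hsp90b1 (908) and Xbp1 (634) in the control, and Ssr4 (1699), Hsp90b1 (1523), Herpud1 (1249), Xbp1 (1064) and Sec11c (967) in the IR library. Over all classes plasma cells were highest on the remaining RNA for 27 of 39 control and 36 of 39 IR levels, and on all RNA for 15 and 23.

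**Figure D3:**
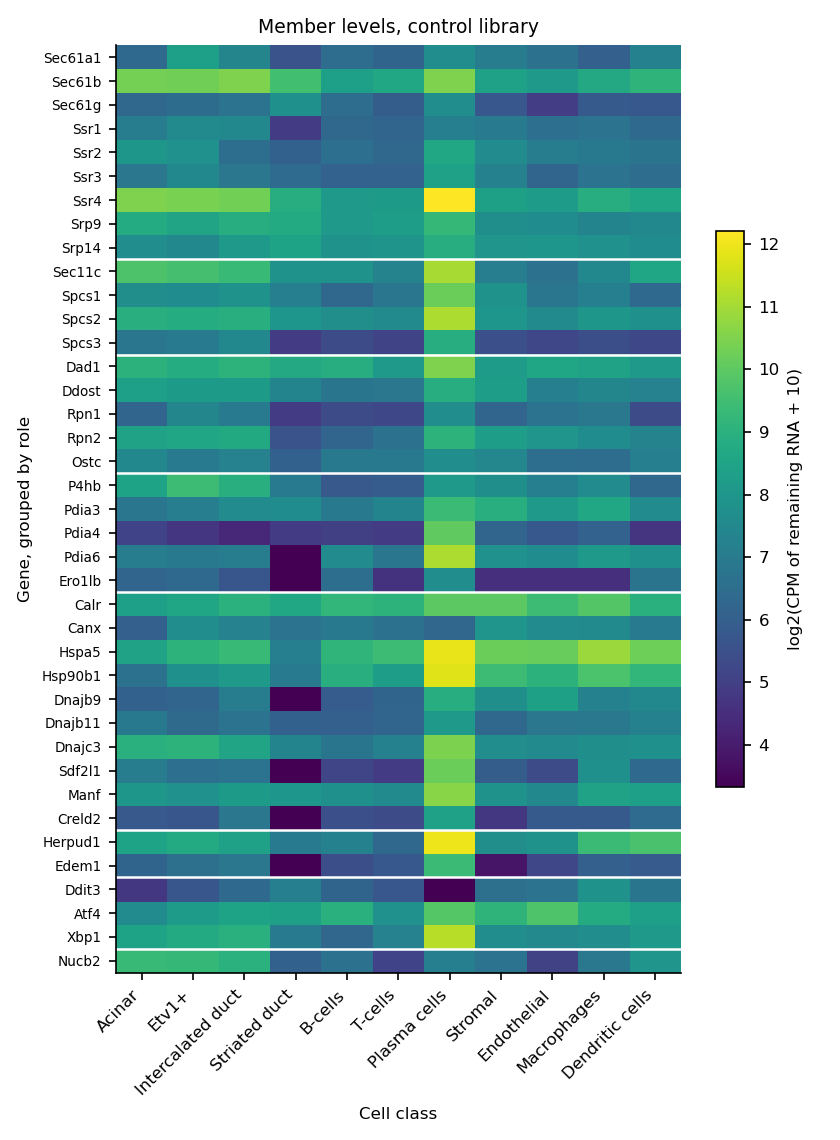
Level of each of the 39 members in 11 cell classes of the control library, as log2(CPM on the remaining RNA + 10), with rows grouped by role. Plasma cells are highest for most members (27 of 39 over all classes). Acinar and Etv1+ cells are high for entry factors such as Ssr4 and below B-cells for Hsp90b1, Atf4 and Ddit3.

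The comparison of acinar with B-cells asked how a salivary secretory cell differs from a lymphocyte that is not secreting. On all RNA 2 of 39 members were higher and 19 lower in control acinar cells, where 4% of 5022 genes were higher and 87.6% lower. The median ratio was 0.521 for the members and 0.103 for all genes. On the remaining RNA 16 members were higher and 3 lower, beside 10.1% and 60.7% of 4977 genes, and the median ratio was 1.79 against 0.352. With TMM factors, which scale on the bulk of genes, 23 were higher and 2 lower. Counts with TMM factors, here and below, have no share of all genes beside them. They are not read as a result about the members. Direction therefore rested on the scale for many members, while their median stood above that of all genes on both scales.

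The 3 members that were lower in acinar cells on both scales were stress-response genes. Not all 3 stayed lower on other scales. Only 2 members were lower with TMM factors, and 2 without any gene over 0.5% of the UMIs. Hsp90b1, the ER form of Hsp90, had 23.5 CPM in acinar cells against 414 in B-cells, a ratio of 0.0569 (0.044 to 0.0726), or 0.195 on the remaining RNA. Atf4, the transcription factor of the integrated stress response, stood at 48.4 and 435 CPM, a ratio of 0.111, or 0.382. Ddit3, which encodes Chop, had 13 UMIs against 131, a ratio of 0.0775, or 0.266. Hspa5, the master chaperone, was lower on all RNA, at 88.4 against 494 CPM (ratio 0.179, 0.156 to 0.205), but its ratio was 0.613 on the remaining RNA, 1.05 with TMM factors and 1.07 without any gene over 0.5% of the UMIs, so its direction rested on the scale. Canx and Calr, the lectin chaperones, had ratios of 0.148 and 0.156, or 0.507 and 0.536. Manf and Creld2, secreted ER stress factors, had ratios of 0.341 and 0.380, which turned to 1.17 and 1.30 on the remaining RNA.

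At the other end, P4hb had 89.5 CPM in acinar cells against 41.3 in B-cells (ratio 2.16, 1.71 to 2.76) and Nucb2 at 163 and 81.4 CPM (2.005, 1.69 to 2.38). On all RNA these were the only members higher. The study had already named both among the ligands enriched in acinar cells of these data, so this is no independent result. Ssr4 (1.55), Xbp1 (1.52) and Rpn2, a subunit of the oligosaccharyltransferase (1.52), had ratios above 1 that did not pass the rule on all RNA and reached 5.32, 5.22 and 5.22 on the remaining RNA. Sdf2l1, a partner of Hspa5, had a ratio of 1.35, or 4.62, and Herpud1 0.727, or 2.49. The 4 subunits of signal peptidase lay between 0.708 and 1.12 on all RNA, with a median of 3.10 on the remaining RNA. In the IR library 0 members were higher and 19 lower on all RNA (3.82% and 86% of 5101 genes), and 13 and 2 on the remaining RNA (9.3% and 59.2% of 5054 genes).

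RNA of acinar cells that is free in the suspension enters every droplet. The level of 9 acinar markers in control B-cells was 8.96% of that in acinar cells, and at that share acinar RNA would make up a median of 4.67% of the members' levels there and at most 19.4%, for P4hb. In duct cells the same measure was a median of 33.6% in the control and 48.0% in the IR intercalated duct, with 6 and 16 members over 50%. In the striated duct it was 24.9% and 38.5%. In the duct classes most of some members' UMIs could therefore be acinar, and how many are was not tested.

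Of 82 other genes of the same pathways, 65 had enough UMIs for acinar over B-cells on all RNA, and 9 were higher and 39 lower. The shares of all genes for each comparison, given where it is introduced, stand beside this count and those below. The farthest were the sensors Atf6 (1 against 101 UMIs, ratio 0.0077, 0.000194 to 0.0441) and Eif2ak3, which encodes Perk (8 against 185 UMIs, 0.0338), then Stt3b (0.053), Uggt1 (0.056), the sensor of misfolded glycoproteins, and Cebpg (0.0715).

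Etv1+ cells differed from acinar cells in few members, and Sec61a1, the pore of the channel, differed most. It stood at 103 CPM in control Etv1+ and 18.8 CPM in acinar cells, a ratio of 5.47 (4.17 to 7.30), or 4.35 on the remaining RNA. Canx stood at 63.3 and 14.5 CPM (4.38, 3.20 to 6.13). Higher too were Ddit3 (3.09), Rpn1, which is part of the oligosaccharyltransferase (51.7 and 16.8 CPM, 3.07), Hsp90b1 (69.3 and 23.5 CPM, 2.94) and P4hb (221 and 89.5 CPM, 2.47). These made 6 of 39 members higher and 0 lower, where 39.6% of 4698 genes were higher and 0.511% lower, so the share of members was below that of all genes. With TMM factors 2 were higher and 0 lower, and with the members kept in the clustering 10 and 0. On the remaining RNA 5 were higher and 0 lower, beside 31% and 0.666% of 4656 genes.

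The other members of the same complexes did not follow. Sec61b had a ratio of 1.19 and Sec61g 1.43 where Sec61a1 had 5.47, and in the oligosaccharyltransferase Ddost had 1.13, Dad1 1.08 and Ostc 0.882 where Rpn1 had 3.07. The lowest ratios belonged to Dnajb11 (0.839) and Sdf2l1 (0.858), both partners of Hspa5, to Pdia4 (0.850), to Ostc and to Srp9 (1.03). Hspa5 (1.93), Atf4 (1.93), Xbp1 (1.53), Herpud1 (1.51), Creld2 (1.17) and Manf (1.09) stayed under the rule, and on the remaining RNA the ratios of Creld2 (0.931) and Manf (0.865) were below 1. In the sub-clusters of the control library, Sec61a1 lay between 10.8 and 49.7 CPM in 7 acinar and between 86.3 and 223 CPM in 5 Etv1+ sub-clusters, and Canx between 0 and 26.0 and between 58.0 and 89.2, so neither overlapped. P4hb overlapped slightly, at 54.7 to 189 and 183 to 295 CPM. In the IR library 8 members were higher, among them Sec61a1, Canx, Rpn1, P4hb and Hsp90b1, and 0 lower (36.8% and 0.805% of 4100 genes).

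Measures of RNA quality moved with this comparison. Malat1 was 9.73 times as high in control Etv1+ as in acinar cells, Neat1 21.6 times, and the mitochondrial share 9.23 times, and Etv1+ cells were deeper, with a median of 24056 against 5474 UMIs. Their part in the result was not tested. Leaving out the shallow Etv1+ sub-cluster (66 control cells, median 1030 UMIs) gave 8 members higher and 0 lower. Of the other pathway genes 71 had enough UMIs, and 26 were higher and 0 lower, with the sensor Atf6 (82 against 1 UMIs, ratio 32.3, 5.64 to 1291), Uggt1 (15.6), the coat protein Sec31a (7.93), Sel1l, which serves degradation (7.01), and Ppp1r15a (5.78) the farthest. Their higher share was near that of all genes given above.

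Plasma cells over B-cells compared the antibody-secreting state with its precursor lineage. In the control library 18 of 38 members with enough UMIs were higher in plasma cells and 3 lower on all RNA, where 4.74% of 2554 genes were higher and 57.8% lower. On the remaining RNA 32 were higher and 0 lower, beside 34.5% and 9.88% of 2519 genes. The control plasma cells numbered only 8, and the IR library, with 30, gave 22 of 39 higher and 1 lower (2.95% and 68.9% of 4304 genes). The cells had been named with markers that include Derl3 and Mzb1, genes of the same pathway that are not members.

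The steepest were genes of the unfolded protein response. Pdia4 stood at 274 CPM in control plasma cells and 19.4 CPM in B-cells, a ratio of 14.1 (7.46 to 25.5), and at 406 and 34.4 CPM in the IR library. Sdf2l1 stood at 308 and 23.7 CPM, a ratio of 13.0 (7.20 to 22.5). Xbp1, the transcription factor that plasma cells need, stood at 634 and 59.0 CPM (10.7, 7.26 to 15.5), and at 1064 and 65.1 in the IR library. Herpud1 stood at 1062 and 124 CPM (8.59, 6.42 to 11.3), and Edem1, which sends glycoproteins to degradation, at 171 and 30.1 CPM (5.68). All of these were higher in plasma cells of both libraries and on both scales, with no overlap of the counting intervals with 1. The intervals do not cover the spread between cells. In the control the UMIs lay in 3 of 8 plasma cells for Sdf2l1 and Edem1, 4 for Pdia4, 6 for Herpud1 and 7 for Xbp1.

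Hsp90b1 (2.19), Manf (2.18), Hspa5 (2.01) and Creld2 (2.76, from 5 against 72 UMIs) rose less, and all 4 signal peptidase subunits were higher, between 2.82 for Sec11c and 5.04 for Spcs1. The translocon parted. Ssr4 was higher at 5.12, while the other members of targeting and translocation lay between 0.564 (Ssr1) and 1.62 (Ssr3). Atf4 had a ratio of 0.551 (1.88 on the remaining RNA), Ostc 0.517 from 3 UMIs (0.106 to 1.53; 1.76 on the remaining RNA), and Ddit3 had 0 UMIs against 131 in B-cells. Lower were Canx (0.175, 0.00442 to 0.986, from 1 against 227 UMIs), Nucb2 (0.421, 0.0506 to 1.54, from 2 UMIs) and Calr (0.494), of which Nucb2 and Calr turned to 1.44 and 1.69 on the remaining RNA. In the IR library only Nucb2 was lower. Of the other pathway genes with enough UMIs (49), 16 were higher and 9 lower, led by Sel1l (22.4), Edem2 (17.7), Txndc5 (13.6), Prdx4 (12.6) and Fkbp2 (8.14).

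**Figure D4:**
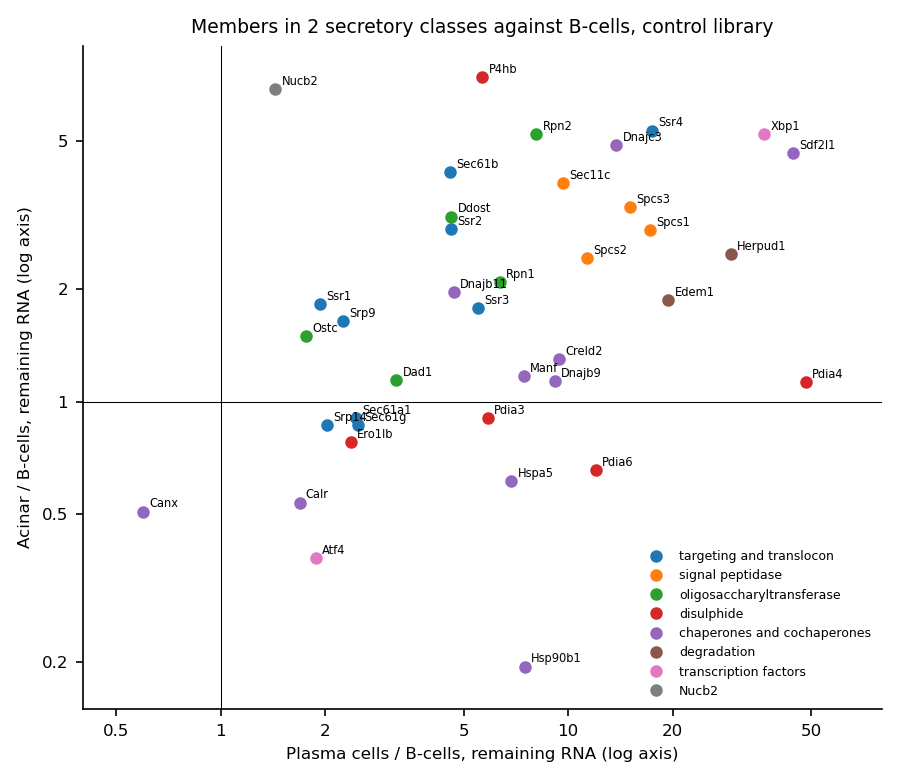
Ratio to B-cells on the remaining RNA in the control library for 38 members with UMIs in all of these classes, acinar cells on one axis and plasma cells on the other, both on log axes. Most members lie higher in plasma than in acinar cells relative to B-cells. Hsp90b1 is the member with the lowest acinar ratio (0.195) and stands at 7.48 in plasma cells; on all RNA most acinar ratios are below 1.

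Plasma and acinar cells, both professional secretory cells, were also set against each other, and here both scales gave nearly the same ratios, since the 473 genes left out took 74.0% and 74.1% of their control UMIs. In the control library 26 of 35 members with enough UMIs were higher in plasma cells and 1 lower, beside 35.4% and 11.5% of 889 genes, and the counts were the same on the remaining RNA, beside 35% and 10.4% of 859 genes. Hsp90b1 was the farthest, at 908 CPM in plasma and 23.5 CPM in acinar cells, a ratio of 38.6 (26.5 to 55.9). Pdia6, a disulphide isomerase, followed at 582 and 31.6 CPM (18.4), then Herpud1 (11.8), Hspa5 (993 and 88.4 CPM, 11.2, 8.30 to 14.98), Edem1 (10.4) and Sdf2l1 (9.65). Entry factors were higher by less, with Ssr4 at 1233 and 374 CPM (3.30, 2.56 to 4.19) and Sec11c at 548 and 218 CPM (2.51). Xbp1 (7.06), Manf (6.40) and Atf4 (4.95) were higher too, and Creld2 was under the minimum. Nucb2 was lower, with 2 UMIs in plasma cells (0.210, 0.0254 to 0.763). With 8 plasma cells in this library, several of the smaller ratios rest on under 10 UMIs.

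The duct classes and the other classes were compared in the control library only. In intercalated duct over acinar cells 7 of 36 members were higher and 1 lower (27.4% and 3.78% of 1295 genes), and on the remaining RNA 4 and 1 (20.6% and 3.18% of 1257). Hsp90b1 stood at 77.01 CPM in intercalated duct and 23.5 CPM in acinar cells (3.27, 2.001 to 5.198), Canx at 41.5 and 14.5 CPM (2.87) and Sec61a1 at 44.4 and 18.8 CPM (2.36), and Ssr2 was lower, at 23.7 and 64.6 CPM (0.367). Acinar RNA could make up 13.0% of the Hsp90b1 and 18.0% of the Sec61a1 level of these cells, but 116% of that of Ssr2, by the measure given above. In striated duct over acinar cells 8 of 30 were higher and 4 lower on all RNA (77% and 4.03% of 1215 genes) but 1 and 15 on the remaining RNA (44.2% and 12.5% of 1180), and Sec61g, with 11 UMIs against 53, was the member higher on both (7.71 and 3.04).

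Etv1+ over B-cells had 4 members higher and 18 lower on all RNA (11.3% and 71.1% of 6899 genes) and 20 and 1 on the remaining RNA (21.2% and 40.8% of 6852). P4hb led at 221 CPM in Etv1+ and 41.3 CPM in B-cells (5.35, 4.36 to 6.65), and Hsp90b1 was lowest (0.167, or 0.457 on the remaining RNA). Stromal over B-cells had 15 higher and 2 lower of 39 (15% and 25.2% of 4825 genes), and 13 and 3 on the remaining RNA (14% and 26.6% of 4785). Rpn2 (4.88), P4hb (4.58), Pdia3 (4.45) and Dnajb9, a partner of Hspa5 in degradation (4.23), led there, and Hspa5 stood at 1091 and 494 CPM (2.21). Endothelial over B-cells had 8 and 4 (19.7% and 20.2% of 5023 genes), the same on the remaining RNA (19.1% and 20.6% of 4986), with Dnajb9 at 293 and 44.8 CPM (6.55, 4.90 to 8.74) and Ero1lb, from 4 UMIs, at 0.169.

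The promoters of several members carry the letters of the ER stress element to which Atf6 and Xbp1 bind, and these sites are shown here. Whether they bear on the differences between classes was not tested. Promoters from 250 bases before to 50 after the start were found for 32 of 39 members in RefSeq (GRCm38.p6). The element, CCAAT and CCACG with any 9 bases between them on either strand, was in 7 of 32, while 0.137% of 27025 genes with a promoter held it. The second form, ATTGG and CCACG with any base between them, was in Dnajb11 and Herpud1, and in 0.0444% of all genes. The element TGACGTGG was in 0 of 32 members and in 0.714% of all genes. The members were chosen by name, with genes of this response among them, so their share beside that of all genes is no test. A match is a description of letters and not a bound site. The Hspa5 match ends 47 bases before the RefSeq start but lies inside the GENCODE span given above, which begins at 34771970. Capitals mark the fixed letters, and each sequence is given 5′ to 3′ on the strand of its gene, so an element on the other strand reads as CGTGG and ATTGG.
Hspa5 (chr2:34772020-34772048, + strand): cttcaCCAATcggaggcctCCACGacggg
Hsp90b1, first match (chr10:86705633-86705661, − strand): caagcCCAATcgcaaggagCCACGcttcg
Hsp90b1, second match (chr10:86705528-86705556, − strand): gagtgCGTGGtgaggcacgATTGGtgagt
Calr (chr8:84847070-84847098, − strand): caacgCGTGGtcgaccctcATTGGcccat
Canx (chr11:50325795-50325823, − strand): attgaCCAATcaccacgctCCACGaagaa
Pdia6 (chr12:17266486-17266514, + strand): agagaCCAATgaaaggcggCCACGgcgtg
Dnajc3 (chr14:118937822-118937850, + strand): cacaaCCAATcagcgccaaCCACGacccg
Creld2 (chr15:88819515-88819543, + strand): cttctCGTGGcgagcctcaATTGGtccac
Herpud1, second form (chr8:94386372-94386392, + strand): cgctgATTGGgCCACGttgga

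The 9 members with either form had a median acinar over B-cell ratio of 0.191 in the control, against 0.547 for the 23 without, or 0.656 and 1.87 on the remaining RNA. In plasma over B-cells 6 of 9 were higher and 2 lower, beside 9 higher and 1 lower of 22 without. The shares of all genes for that comparison are given above. For IR over control the medians were 1.31 and 1.13 in acinar cells, 1.35 and 1.24 in Etv1+ cells, 0.949 and 1.10 in B-cells and 0.884 and 1.07 in T-cells. The ranges of both sets overlapped in each of these comparisons, and no test was made.

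Irradiated over control acinar cells gave 5 of 37 members with enough UMIs higher and 0 lower, where 20.6% of 2109 genes were higher and 2.56% lower, a larger share than among the members. The median ratio was 1.17 for the members and 1.22 for all genes, and on the remaining RNA 1.04 and 1.08, where 3 members were higher and 0 lower (9.9% and 5.02% of 2070 genes). With TMM factors 2 were higher and 2 lower. The 5 were Canx, Hsp90b1, Atf4, Pdia3 and Manf. Canx stood at 28.7 CPM in the IR and 14.5 CPM in the control library (ratio 1.99, 1.35 to 2.96), Hsp90b1 at 44.0 and 23.5 CPM (1.87, 1.38 to 2.55) and Atf4 at 89.9 and 48.4 CPM (1.86, 1.504 to 2.30). Pdia3 (1.61) and Manf (1.59) fell under the rule on the remaining RNA, at 1.42 and 1.40.

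Hspa5 stood at 126 and 88.4 CPM (1.42, 1.21 to 1.68), Herpud1 at 114 and 89.8 CPM (1.27) and Xbp1 at 112 and 89.8 CPM (1.25). Sdf2l1 (1.16) and Creld2 (1.14) had intervals that included 1, and Ddit3, with 36 and 13 UMIs, was under the minimum. At the low end were Nucb2 (125 and 163 CPM, 0.766), P4hb (0.788), Rpn2 (0.829), Sec61b (0.880) and Sec61g (0.900), and none passed the rule. Within acinar sub-clusters with at least 20 UMIs of the gene, Hsp90b1 was above 1 in 4 of 4, Hspa5 in 5 of 5 and Manf in 5 of 5, while Sec61b was below 1 in 6 of 6. The mitochondrial share of acinar UMIs was 0.315% in the IR and 0.137% in the control library, and 9 genes of the response to tissue dissociation summed to 833 and 704 CPM. Their part in the result was not tested. Of 51 other pathway genes 7 were higher and 3 lower, with Derl2 (2.42), Kdelr2 (2.40), Ppp1r15a (2.17), Kdelr3 (1.63) and Sil1 (0.555) the farthest. Their higher share was below that of all genes given above.

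**Figure D5:**
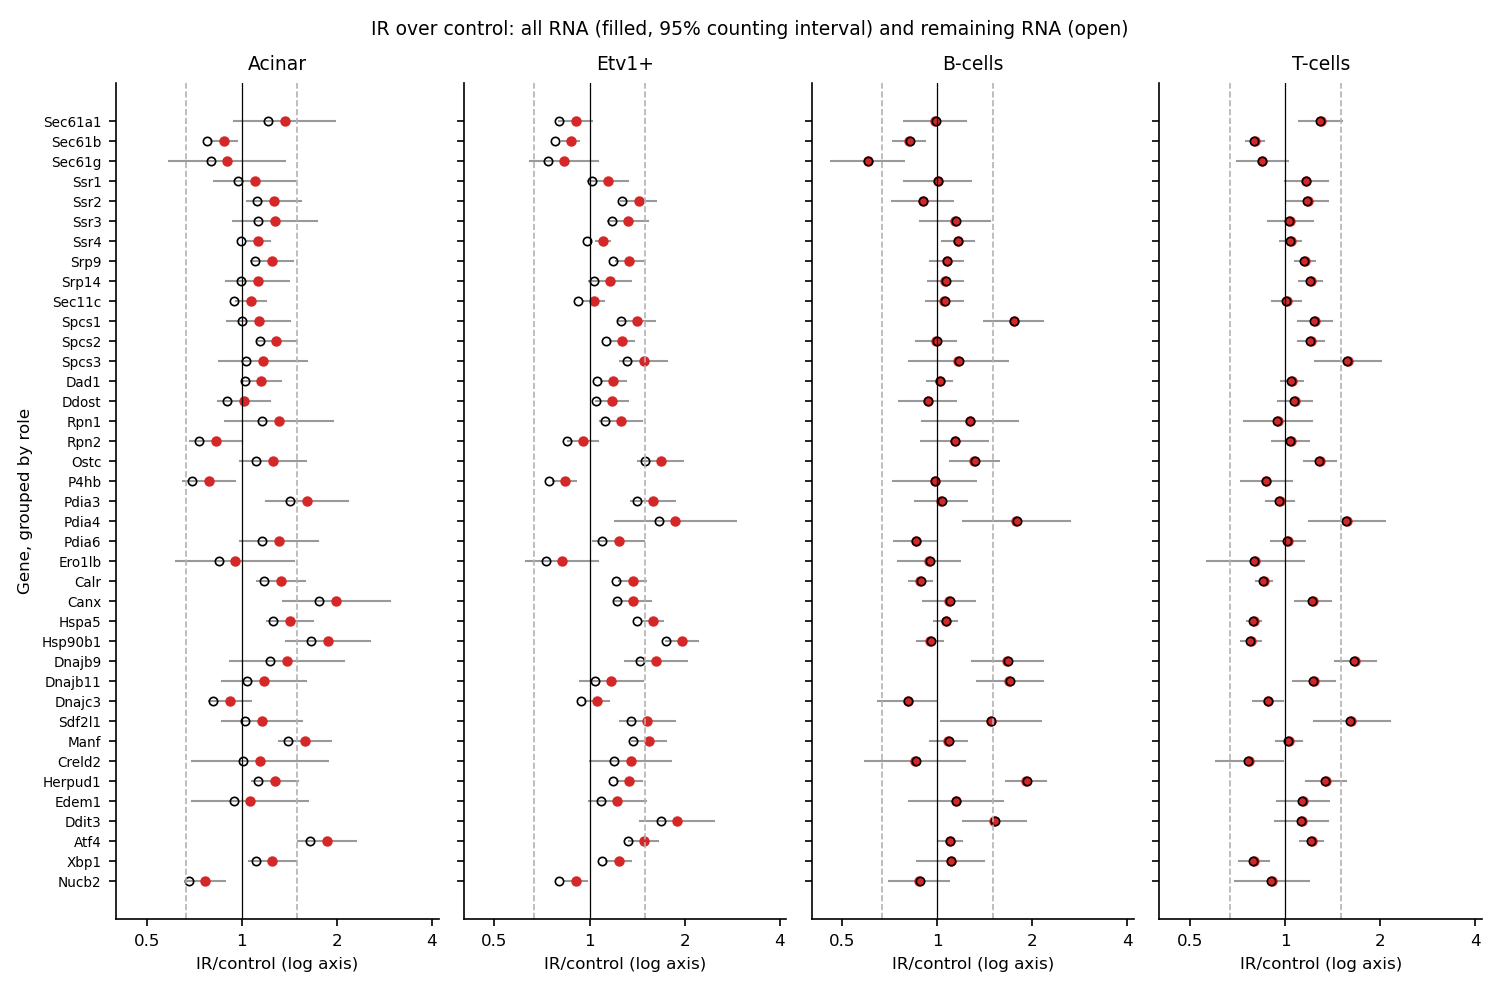
Ratio of IR to control for each member with enough UMIs in acinar, Etv1+, B- and T-cells on a log axis, filled points on all RNA with 95% counting intervals and open points on the remaining RNA. Dashed lines mark 1.5 and its inverse. Hsp90b1 is at 1.87 in acinar and 1.97 in Etv1+ cells (1.66 and 1.75 on the remaining RNA) but at 0.949 in B- and 0.779 in T-cells.

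In Etv1+ cells 9 of 39 members were higher and 0 lower in the IR library on all RNA, beside 19.1% and 2.13% of 5975 genes, but 3 were higher and 0 lower on the remaining RNA, beside 9.81% and 4.25% of 5931 genes. With TMM factors 2 were higher and 2 lower. The median ratio was 1.27 for the members and 1.196 for all genes. Hsp90b1 stood at 136 CPM in IR and 69.3 CPM in control (ratio 1.97, 1.75 to 2.21; 1.75 on the remaining RNA). Ddit3 (25.6 and 13.5 CPM, 1.89) and Pdia4 (10.1 and 5.43 CPM, 1.87) also stayed above 1.5 on both scales. The other 6 passed on all RNA only. Hspa5 stood at 271 and 171 CPM (1.59, 1.47 to 1.71), or 1.41 on the remaining RNA. Ostc (1.68), Dnajb9 (1.62), Pdia3 (1.59), Manf (1.55) and Sdf2l1 (1.52) were likewise between 1.356 and 1.496 on the remaining RNA. Atf4 (1.48), Creld2 (1.35), Herpud1 (1.33) and Xbp1 (1.23) did not pass the rule.

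The 3 subunits of the Sec61 channel were among the lowest members. Sec61a1 (0.903), Sec61b (0.872), Sec61g (0.831), P4hb (0.835) and Ero1lb (0.820), which oxidises the Pdia proteins, had ratios below 1, and none passed the rule. The other 6 genes of targeting and translocation lay between 1.10 (Ssr4) and 1.43 (Ssr2) on all RNA and between 0.980 and 1.27 on the remaining RNA, and none passed either. By role, on all RNA 5 of 10 chaperones were higher, with a median of 1.45, and 0 of 9 targeting and translocation genes, with a median of 1.15. The shares of all genes are given above. On the remaining RNA Hsp90b1 was the only chaperone past the rule, with Dnajb9 at 1.44, Hspa5 at 1.41, Manf at 1.37 and Sdf2l1 at 1.36. Within 5 sub-clusters Hsp90b1 was above 1 in 5 (1.25 to 2.05) and P4hb below 1 in 5 (0.746 to 0.865), while Hspa5 was above 1 in 3 of 5. Control Etv1+ cells were deeper (median 24056 against 5722 UMIs), and the part of depth in the result was not tested. Leaving out the shallow sub-cluster (66 control and 89 IR cells) gave 9 higher and 0 lower. The dissociation genes summed to 2121 CPM in IR and 2486 CPM in control. Of 75 other pathway genes 15 were higher and 0 lower, led by Chac1, an Atf4 target that degrades glutathione (32.3 and 4.77 CPM, ratio 6.78), Tusc3 (2.14), Sec24d (1.99), Atf6b (1.94) and Sec23b (1.91). Their higher share was near that of all genes given above.

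In intercalated duct cells 5 of 25 members were higher and 0 lower (14.9% and 16% of 599 genes), and on the remaining RNA 3 and 2 (12.3% and 19.8% of 567 genes). Ssr2, another subunit of the translocon-associated complex, had 61 UMIs in the IR and 8 in the control library (ratio 4.22, 2.01 to 10.2), and Atf4 105 and 33 (1.76, 1.18 to 2.69). By the measure of free RNA, acinar RNA could make up 116% of the control and 47.8% of the IR level of Ssr2, and 21.1% and 30.6% of that of Atf4. The acinar markers in these cells stood at 42.5% (control) and 58.5% (IR) of their acinar level, Malat1 at 487 CPM in IR against 1730 CPM in control, and of 9 dissociation genes 2 were higher and 3 lower. The part of these in the result was not tested. Sec61a1 (1.77), Ostc (1.58) and Canx (1.502) had intervals that included 1. Hspa5 (0.793) and Hsp90b1 (0.787) were not higher here. The lowest were P4hb (0.689), Nucb2 (0.703), Sec61b (0.720) and Rpn2 (0.761), and Herpud1 (1.09), Manf (1.07) and Xbp1 (0.942) lay near 1. A sub-cluster of 66 IR cells and another of 30 control cells belonged to a single library, and without the sub-clusters in which a library had under 10 cells, 2 of 5 members with enough UMIs were higher. Of 18 other pathway genes 4 were higher and 1 lower, with Fkbp11 (1.95), Tmed2 (1.85), Srp54b (0.632), Surf4 (1.62) and Cebpb (1.55) the farthest.

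In striated duct cells 4 members had enough UMIs, Calr (1.04), Ssr4 (0.980), Srp9 (0.891) and Sec61b (0.796), and none passed the rule on all RNA, where 9.6% of 354 genes were higher and 58.5% lower. On the remaining RNA all 4 were above 1, with 1 higher and 0 lower (12% and 41.4% of 326 genes). A sub-cluster of 51 IR cells had no control cells, so these ratios compare different sets of cells. The mitochondrial share was 2.73% in IR and 0.716% in control striated duct cells, Malat1 stood at 2855 and 1661 CPM, and the acinar markers at 64.3% and 32.6% of their acinar level. The part of these in the ratios was not tested. Of 3 other pathway genes 1 was lower, Ppib (0.654).

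In B-cells 6 of 39 members were higher and 1 lower in the IR library on both scales (9.56% and 3.97% of 6441 genes on all RNA, 9.8% and 3.86% of 6396 on the remaining RNA). Herpud1 led with 236 CPM in IR and 124 CPM in control cells (1.91, 1.65 to 2.22) and was above 1 in 7 of 7 sub-clusters (1.23 to 2.66). Pdia4 (1.78), Spcs1 (1.74), Dnajb11 (1.69), Dnajb9 (1.67) and Ddit3 (1.51) followed. Sec61g fell from 70.6 to 42.5 CPM (0.601, 0.460 to 0.782), below 1 in 5 of 5 sub-clusters. The chaperones that led in this class differed little, with Hspa5 at 526 and 494 CPM (1.07) and Hsp90b1 at 393 and 414 CPM (0.949). Sdf2l1 (1.47), Xbp1 (1.10), Atf4 (1.09), Manf (1.08) and Creld2 (0.852) did not pass, nor did Dnajc3 (0.805), Sec61b (0.814) and Pdia6 (0.853). The dissociation genes were higher in the IR library, 3001 against 2305 CPM, with 5 of 9 higher and 2 lower, and their part in the result was not tested. Of 65 other pathway genes 9 were higher and 1 lower, with Asns (1.94), Fkbp11 (1.89), Sec62 (0.556), Ppp1r15a (1.78) and Cebpb (1.71) the farthest.

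The largest T-cell cluster (604 control and 1037 IR cells) was led by genes of secretory glands, among them Obp1a, Mucl2 and Scgb1b2, and by Lef1. Of its 10 leading genes, 9 had over 50% of their UMIs in 1 control cell of 28476 UMIs. Without that cell it was led by Lef1, Ramp3, Rras2 and Emb, and 8 of 8 T-cell markers were between 2.60 and 3.53 times as high as in the other cells.

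In T-cells 4 of 39 members were higher and 0 lower (14.4% and 2.81% of 8918 genes), with the same counts on the remaining RNA (14% and 2.84% of 8874 genes) and 0 past the rule with TMM factors. The 4 were Dnajb9 (94.8 and 56.9 CPM, 1.67, 1.43 to 1.94), Sdf2l1 (1.62), Spcs3 (1.58) and Pdia4 (1.57). Hspa5 stood at 485 CPM in IR and 611 CPM in control cells (0.795, 0.755 to 0.837), Hsp90b1 at 220 and 282 (0.779), Xbp1 at 104 and 131 (0.797) and Sec61b at 290 and 361 (0.803). With Creld2 (0.768) these were the lowest, and none passed the rule. Herpud1 (1.35), Atf4 (1.21), Ddit3 (1.13) and Manf (1.03) were above 1. In each of 5 T-cell clusters Hspa5, Hsp90b1, Xbp1 and Sec61b were below 1 and Dnajb9, Sdf2l1, Pdia4 and Herpud1 above 1. Canx, Dnajb11, Ssr2, Ssr4, Spcs1 to Spcs3, Srp9, Srp14, Ddost and Ostc were also above 1 in all 5. The dissociation genes summed to 4157 CPM in IR and 2794 CPM in control cells. A T-cell cluster held 115 control and 846 IR cells, and without it 3 members were higher. Leaving out the cell of 28476 UMIs gave 4 higher and 0 lower. Without the whole largest cluster 2 were higher and 0 lower, Dnajb9 (1.77) and Pdia4 (1.59), while Sdf2l1 (1.49) and Spcs3 (1.36) fell under the rule and Hspa5 stood at 0.678. Of 73 other pathway genes 3 were higher and 4 lower, with Ern1, which encodes Ire1 (0.343), Ppp1r15a (1.91), Sec62 (0.579), Atf6b (1.70) and Srp68 (1.61) the farthest.

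A small T-cell cluster had a larger share of its UMIs on the members together than the rest. It had 46 cells in each library and was led by Trdc, Cd163l1, Tcrg-C1 and Cxcr6. Members took 1.10% of its control and 1.09% of its IR UMIs, against 0.457% to 0.590% in the other 4 T-cell clusters. Hspa5 stood at 2377 and 1913 CPM there, Hsp90b1 at 874 and 824, Manf at 535 and 545, and Sec11c at 472 and 638. These levels were high in both libraries. Not every member was higher there. In the IR library Ssr1 stood at 57.3 CPM (8 UMIs) against 55.5 to 85.1 in the other T-cell clusters. Rpn1 stood at 28.7 against 17.1 to 29.3, and Edem1 at 28.7 against 26.0 to 77.7, from 4 UMIs each.

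The remaining classes are given by counts, since few cells stand behind them. In plasma cells 12 of 23 members were higher in the IR library and 0 lower (40.7% and 8.06% of 273 genes), and on the remaining RNA 6 and 1 (20.2% and 11.7% of 248 genes). In stromal cells 3 of 24 were higher and 1 lower (16.5% and 23.5% of 922 genes), with Hspa5 at 2059 CPM in 18 IR and 1091 CPM in 37 control cells (1.89, 1.56 to 2.28) and Manf at 407 and 209 CPM (1.95), while Rpn2 fell to 132 from 282 CPM (0.469). Endothelial cells had 0 higher and 2 lower of 22, Ssr4 (0.517) and Rpn2 (0.663), beside 7.86% and 10% of 1603 genes. Macrophages had 1 and 1 of 26, Ostc (1.81) and Ddit3 (0.272), beside 8.02% and 17.3% of 1222 genes. Dendritic cells had 4 higher and 1 lower of 31 (15.6% and 6.55% of 2184 genes), with Hspa5 at 632 against 1104 CPM (0.573, 0.489 to 0.672), the opposite direction to stromal cells. NK cells had 0 higher and 2 lower of 12, Manf (0.563) and Sec11c (0.657), beside 13.2% and 11.4% of 782 genes. These differences between classes were not tested.

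Shares of cells with a UMI followed depth as well as level. Hsp90b1 had a UMI in 15.3% of 373 control and 25.3% of 363 IR acinar cells, in 57.5% and 57.1% of Etv1+ cells and in 57.0% and 51.8% of B-cells. After each cell was thinned to 1000 UMIs, the shares were 2.50% and 6.05% in acinar cells, 8.90% and 10.3% in Etv1+ cells and 31.2% and 29.98% in B-cells. Xbp1 had a UMI in 9.72% of 360 thinned control acinar cells and in 4.86% of 823 control B-cells, and in 4 of 8 control plasma cells. Among acinar, Etv1+ and B-cells, acinar cells had the lowest share of cells with Hsp90b1 before and after thinning. The shares of Etv1+ and B-cells were close before thinning, and B-cells were above Etv1+ cells after it. Control striated duct cells were below acinar cells before thinning, with Hsp90b1 in 6.59% of 91 cells. After thinning they had it in 1 of 20 cells.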

How the data were processed

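Single-cell RNA was measured in 2 libraries, 1 control and 1 IR. Cell Ranger 3.0.1 and the mm10 (GRCm38) build are named in the submitters' processing notes, beside Seurat 3, and the deposited values are raw UMI counts per gene and barcode, with no further scaling by the authors. How cells were told from empty droplets is not given in the sources used here. No column was left unused (0).

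Cells were barcodes of 200 genes or more with mitochondrial UMIs at or under 5%, as in the study's methods. The libraries were integrated and clustered in Seurat 5.3.0 (R 4.3.3) with 2000 variable genes, 1984 after the members were left out, 30 principal components and a resolution of 0.4, which gave 19 clusters, and a second clustering within classes used 20 components and a resolution of 0.8. A class was named where at least 3 fixed markers were at least 2 times as high as in other cells, from at least 5 UMIs; how ties and mixed clusters were settled was chosen after the clusters were seen. Scrublet (scanpy 1.11.5) marked 32 control cells (0.947%) and 1 IR cell (0.0189%), too few to have worked, so doublets were kept and an alternative left out the 6% highest scores.

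UMIs were summed by class and library and scaled to CPM. Ratios and intervals used scipy 1.17.1, numpy 2.4.6 and pandas 2.3.3, figures matplotlib 3.10.9 and TMM factors edgeR 4.0.16. The steps were tested on simulated data. The depth behind each value is its UMI count, and acinar cells held 2973702 (control) and 2680533 (IR) UMIs and plasma cells 58388 and 226545, so genes with few UMIs have wide intervals. Thinning drew 1000 UMIs from each cell and left out shallower ones.

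Named in each comparison are the 5 highest and 5 lowest ratios among members with at least 50 UMIs, 9 stress-response members, and up to 5 other pathway genes farthest from 1. The members and all lists were chosen with earlier results of these data known, and the comparison of barcodes with under 200 genes and of nuclear RNA was added after the data were seen. Alternatives were other scalings, UMI minimums of 20 or none, larger folds (2 between libraries, 3 between classes), at least 500 genes, a mitochondrial limit of 10%, no integration and members kept in the clustering.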

Additional observations from a re-analysis of the deposited data

How the results depend on the processing

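No paired analysis was possible because each condition has 1 library. Each count below is of members past the rule, higher and lower together, and the cause of a change was not tested unless the setting itself gives it. For acinar over B-cells in the control, 21 became 19 on the remaining RNA, 25 with TMM factors and 26 without every gene over 0.5% of the UMIs, with most members higher instead of lower. Etv1+ over acinar went from 6 to 2 with TMM factors and to 10 with the members kept in the clustering, and plasma over B-cells from 21 to 32 on the remaining RNA and 12 with the larger fold. For IR over control, acinar cells went from 5 to 3 on the remaining RNA, 2 with at least 500 genes per cell and 0 with the larger fold. Etv1+ cells went from 9 to 3 on the remaining RNA and without genes over 0.5%, 4 with TMM factors and 0 with the larger fold. Intercalated duct went from 5 to 10 with no minimum, 3 without the 6% highest doublet scores, 2 without the sub-clusters of under 10 cells in a library and 1 with the larger fold. Striated duct went from 0 to 1 on the remaining RNA or with a mitochondrial limit of 10%, 3 with TMM factors or without genes over 0.5%, 9 with a minimum of 20 UMIs and 21 with none, and at least 500 genes left no such class. B-cells had 0 with the larger fold, and T-cells 0 with it or with TMM factors and 2 with a mitochondrial limit of 10% or without their largest cluster. The scaling without genes over 0.5% and the leaving out of sub-clusters, clusters or a single cell were added after the data were seen.

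Reversed ratios of single members for acinar over B-cells were, on the remaining RNA, Pdia4 1.13, Dnajb9 1.13, Manf 1.17, Creld2 1.30, Srp9 1.65, Dad1 1.14 and Ostc 1.495. With TMM factors they were Pdia3 1.55, Pdia4 1.94, Pdia6 1.12, Hspa5 1.05, Dnajb9 1.94, Manf 1.999, Creld2 2.23, Sec61a1 1.55, Sec61g 1.48, Srp9 2.82, Srp14 1.48, Dad1 1.96, Ostc 2.56 and Ero1lb 1.33. Without genes over 0.5% they were Pdia3 1.58, Pdia4 1.97, Pdia6 1.14, Hspa5 1.07, Dnajb9 1.98, Manf 2.04, Creld2 2.27, Sec61a1 1.58, Sec61g 1.51, Srp9 2.87, Srp14 1.51, Dad1 1.997, Ostc 2.61 and Ero1lb 1.36. For plasma over B-cells Calr and Nucb2 turned to 1.69 and 1.44 on the remaining RNA and to 1.59 and 1.35 without genes over 0.5%. In intercalated duct Sec61a1 turned to 0.916 with at least 500 genes per cell. Of the other ratios of single members over all settings, 2185 stayed within their main interval and 437 moved beyond it without reversing a ratio that passed the rule. Depth limits the striated duct most, where 4 members had enough UMIs.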
